A study of Mus musculus with 6 samples.

Results

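The genes described here are 10 ligands, antagonists and receptor chains of the interleukin-1 family, followed across cells sorted from mouse skin squamous cell carcinomas. They were chosen by name from a table of 55481 entries. The table listed 7 of the 10 under their current symbols and 3 under older ones: Il36a as Il1f6, Il36g as Il1f9 and Il36rn as Il1f5. None of the 10 symbols was repeated. DMBA, a carcinogen, and TPA, a promoter of tumour growth, had been used to induce the tumours, and the study asked how tumour stem-like cells act on neutrophils. The first population had high Itga6, the integrin alpha 6 chain of basal keratinocytes, and carried CD80, a co-stimulatory ligand (Itga6hi CD80pos, which the submitters call stem-like). The other had low Itga6 and no CD80 (Itga6low CD80neg, which they call differentiated cancer cells). Each was sequenced in bulk as 2 polyA libraries, and a further labelled group, Itga6 high but negative for CD80, is not analysed here. The labels name no strain, no age and no further gate. They leave unsaid whether a replicate is another animal, so a p-value here covers the spread of the 4 libraries only, and that may be technical. Levels are TPM, transcript shares of a fixed total corrected for length. They do not hold the number of reads, and sequencing depth is therefore unknown.

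Interleukin-1 alpha and beta are alarm cytokines that bind the receptor chain Il1r1, which then recruits the accessory chain Il1rap and signals to NF-kB. Il1rn encodes the receptor antagonist, which occupies Il1r1 without recruiting Il1rap, and Il1r2 is a decoy receptor that binds the ligands without signalling. The IL-36 cytokines form a parallel branch that is prominent in epidermis: Il36a and Il36g are agonists of the receptor Il1rl2, which also pairs with Il1rap, and Il36rn is their antagonist. Keratinocytes are known for stores of interleukin-1 alpha and of the receptor antagonist, whereas interleukin-1 beta is known mainly as a product of activated myeloid cells. Il18 encodes a related cytokine that, like interleukin-1 beta, is released after cleavage by caspase-1.

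The 6 ligand and antagonist members of the interleukin-1 and IL-36 branches lie on mouse chromosome 2, in separate groups (GENCODE M21, GRCm38). Il36g (24186476 to 24193568, plus strand), Il36a, Il36rn and Il1rn (24336853 to 24351494, plus strand) together span 165 kb. Il1a and Il1b (129364570 to 129371139, minus strand) lie next to each other, 54.6 kb apart. The receptor genes Il1r2 and Il1r1 are neighbours on chromosome 1, 99.8 kb apart, while Il1rap lies on chromosome 16 and Il18 on chromosome 9.

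The start regions of Il1b, Il36g and Il1rn are shown because Il1b and Il36g are the agonists of the 2 pairs with the largest shift against their antagonist described below, and Il1rn is the antagonist of the first pair. Each is the 250 bases before a RefSeq transcription start (GRCm38.p6), read 5′ to 3′ on the gene's strand. Capitals mark matches to 3 motifs: TATAAA on the gene's strand, the AP-1 motif TGANTCA, and, for NF-kB, GGG followed by any 2 bases, TT, any base and CC, the last 2 motifs on both strands.
Il1b, chr2:129371140-129371389, minus strand: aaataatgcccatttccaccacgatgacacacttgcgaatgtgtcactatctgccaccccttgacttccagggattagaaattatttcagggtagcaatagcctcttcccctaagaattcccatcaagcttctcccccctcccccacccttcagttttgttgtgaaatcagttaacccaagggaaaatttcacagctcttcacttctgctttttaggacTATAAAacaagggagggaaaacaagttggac
Il36g, chr2:24186226-24186475, plus strand: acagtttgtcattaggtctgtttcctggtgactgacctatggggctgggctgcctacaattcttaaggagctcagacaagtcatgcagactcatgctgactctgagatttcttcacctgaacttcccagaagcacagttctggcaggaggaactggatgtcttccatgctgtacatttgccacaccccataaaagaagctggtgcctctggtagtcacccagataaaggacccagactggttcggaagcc
Il1rn, the first start, chr2:24336610-24336859, plus strand: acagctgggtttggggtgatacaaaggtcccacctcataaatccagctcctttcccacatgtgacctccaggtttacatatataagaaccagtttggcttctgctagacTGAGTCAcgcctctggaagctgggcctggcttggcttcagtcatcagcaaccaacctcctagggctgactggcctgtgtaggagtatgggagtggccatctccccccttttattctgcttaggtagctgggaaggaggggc
Il1rn, the third start, chr2:24345121-24345370, plus strand: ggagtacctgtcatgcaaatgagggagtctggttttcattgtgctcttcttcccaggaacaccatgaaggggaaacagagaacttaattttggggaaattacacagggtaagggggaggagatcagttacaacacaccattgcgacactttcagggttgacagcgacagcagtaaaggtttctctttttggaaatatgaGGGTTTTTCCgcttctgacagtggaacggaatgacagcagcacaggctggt
The Il1b window held a TATAAA match beginning 31 bases before the start, and the window of Il1a, its neighbour, held another at 32 bases, besides an AP-1 match at 12 bases. The first Il1rn window held an AP-1 match at 141 bases, and the third held the NF-kB match at 51 bases. No match to these letters lay in the Il36g window or in the 2 windows of Il36rn, the antagonist of the second pair. Among 13 windows of 9 members with an entry, 2 held AP-1 letters and 1 held NF-kB letters. Over 32536 such windows of all genes the shares were 6.73% for AP-1, 4.11% for NF-kB and 7.55% for TATAAA. A match is a description of these letters and not a bound site. The TPM are summed per gene, so the starts of Il1rn cannot be told apart in the values below.

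A property of the libraries touches every level below. Haemoglobin genes made up 70.9% and 50.4% of TPM in the Itga6low CD80neg libraries and 0.0185% and 0.00621% in the Itga6hi CD80pos libraries, so other genes of the former share what is left of a fixed total. All 6 red blood cell markers were lower in Itga6hi CD80pos. The median log2 fold change of 13474 tested genes (Itga6hi CD80pos minus Itga6low CD80neg, on log2(TPM + 1)) was 1.27 on the deposited TPM and 0.16 once haemoglobin genes were taken out and the rest rescaled. limma called 57.0% of tested genes higher and 9.48% lower on the deposited TPM at an adjusted p under 0.05, and 7.72% higher and 10.8% lower without haemoglobin genes. Under every one of 5 scalings, which were these 2, median-of-ratios, quantile normalization and a total without haemoglobin, mitochondrial, ribosomal protein and keratin genes, 6.58% were higher and 8.28% lower. Calls made under all 5 are described as kept. When Itga6hi CD80pos replicate 1 was left out, no gene at all passed in limma (0 in either direction), while 4442 higher and 1033 lower ones had an unadjusted p under 0.05.

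All 10 members passed the filter on low values, at least 1 TPM in at least 2 libraries. In Itga6hi CD80pos cells, Il1b and the receptor chains Il1r1 and Il1r2 were lower and Il36g was higher on the deposited TPM; the other 6 members did not pass the test. The 3 lower calls, against a background of 9.48%, were kept under all 5 scalings. The higher call, against a background of 57.0%, was made on the deposited TPM and under none of the other 4 scalings. The median log2 fold change of the 10 was -0.24 on the deposited TPM and -1.50 without haemoglobin genes, beside 1.27 and 0.16 for all tested genes. Leaving out either Itga6hi CD80pos library ended all 4 calls: 0 members were then called by limma, although 3 were lower at an unadjusted p under 0.05 without replicate 1 and 2 without replicate 2. Over all tested genes, limma then called 0 without replicate 1, and without replicate 2 it called 353 higher and 174 lower, with 1120 lower at an unadjusted p under 0.05.

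**Figure D1:**
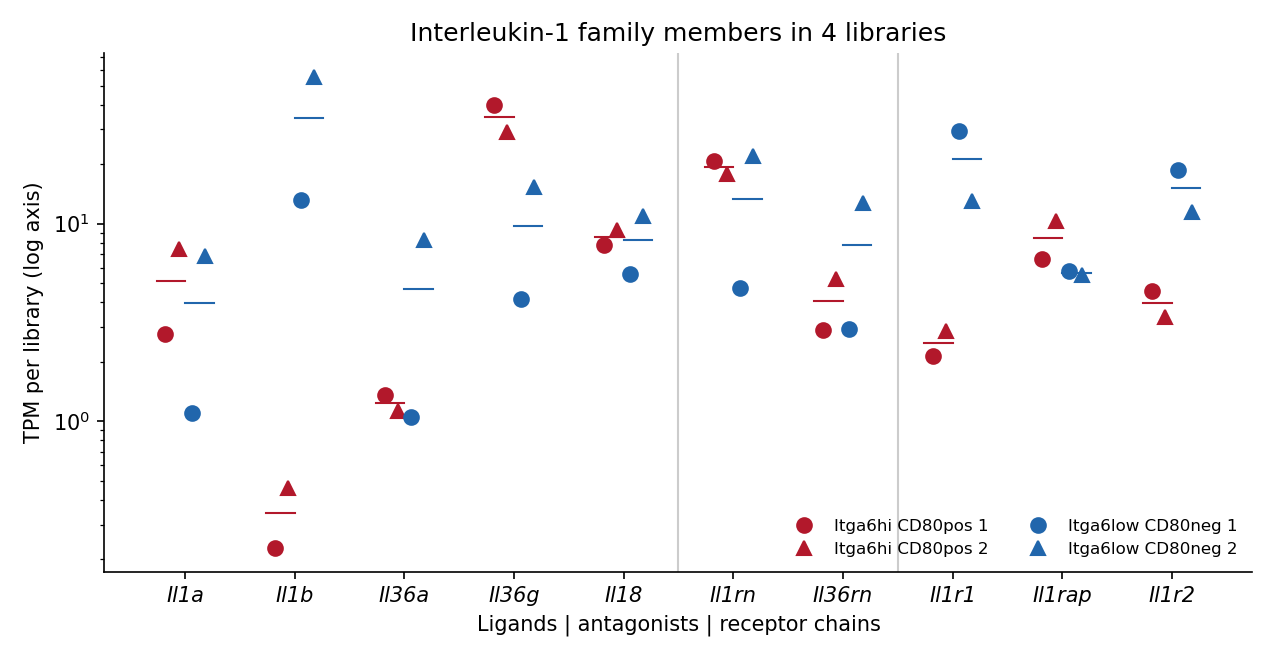
TPM of each member in each of 4 libraries on a log axis, with circles for replicate 1, triangles for replicate 2 and a line at each group's mean (n = 2). Il1b lies under 1 TPM in both Itga6hi CD80pos libraries and above 10 TPM in both Itga6low CD80neg libraries, and the Il36g points lie in the opposite order.

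Il1b, the secreted agonist that needs caspase-1, separated the groups furthest. It stood at 0.228 and 0.459 TPM in the Itga6hi CD80pos libraries and at 13.2 and 55.5 TPM in the Itga6low CD80neg libraries. Both Itga6low CD80neg libraries were far above both of the others, although they differed 4.20-fold between themselves. The group means were 0.343 ± 0.163 TPM against 34.4 ± 29.9 TPM (SD, n = 2 each). The log2 fold change was -4.41 ± 0.67 (SE, limma adjusted p = 0.00669), and between -5.92 and -4.41 over the 5 scalings, with adjusted p up to 0.0127. The adjusted p was 0.0768 without Itga6hi CD80pos replicate 1 and 0.0650 without its replicate 2. By group mean, Il1b lay above 4.74% of tested genes in Itga6hi CD80pos and above 89.8% in Itga6low CD80neg, which made it the lowest of the 10 members in the former and the highest in the latter.

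Il1a, the agonist that keratinocytes store as an active precursor, showed no such separation. It stood at 2.77 and 7.48 TPM in Itga6hi CD80pos and at 1.10 and 6.87 TPM in Itga6low CD80neg. The groups overlapped, and replicate 2 was the higher library in each. The log2 fold change was 0.48 ± 0.74 (SE, limma adjusted p = 0.587). It turned to -0.58 without haemoglobin genes (limma adjusted p = 0.614), so no direction can be given for this gene.

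The IL-36 agonists differed from each other. Il36g stood at 40.0 and 29.1 TPM in Itga6hi CD80pos, where it was the most abundant of the 10 members, and at 4.16 and 15.3 TPM in Itga6low CD80neg. The groups did not overlap. The means of 34.5 ± 7.74 TPM and 9.74 ± 7.90 TPM (SD, n = 2) gave a log2 fold change of 1.94 ± 0.60 (SE, limma adjusted p = 0.0354), which is 0.67 above the median of all tested genes. Without haemoglobin genes the levels were 40.0 and 29.1 TPM against 14.3 and 30.9 TPM and overlapped, with a log2 fold change of 0.67 ± 0.44 (SE, limma adjusted p = 0.337). Over the 5 scalings the adjusted p reached 0.390, and it was 0.0558 without Itga6low CD80neg replicate 1. Il36a stood much lower, at 1.35 and 1.12 TPM against 1.05 and 8.30 TPM. Without haemoglobin genes its levels were 1.35 and 1.12 TPM against 3.63 and 16.7 TPM and did not overlap. The log2 fold change there was -2.02 ± 0.72 and did not pass the test (SE, limma adjusted p = 0.119). On the deposited TPM only Itga6low CD80neg replicate 2 exceeded 2 TPM, and the groups overlapped. The log2 fold change of -0.97 ± 0.72 did not pass the test (SE, limma adjusted p = 0.271). Without that library the value was 0.12 (limma adjusted p = 0.568), and without Itga6low CD80neg replicate 1 it was -2.06 and passed (limma adjusted p = 0.0173).

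On the deposited TPM, though under none of the other 4 scalings, the log2 fold change of Il18 was the nearest to 0 of the 10 members. It stood at 7.81 and 9.25 TPM in Itga6hi CD80pos and at 5.59 and 11.0 TPM in Itga6low CD80neg. The Itga6hi CD80pos libraries lay between the other 2 on the deposited TPM. The log2 fold change was 0.10 ± 0.39 (SE, limma adjusted p = 0.833). Without haemoglobin genes, the Itga6low CD80neg libraries stood at 19.2 and 22.1 TPM, above both of the others, with a log2 fold change of -1.18 ± 0.31 that missed the threshold (SE, limma adjusted p = 0.0607).

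The antagonists were present in every library. Il1rn stood at 20.7 and 17.9 TPM in Itga6hi CD80pos and at 4.74 and 21.9 TPM in Itga6low CD80neg. The Itga6low CD80neg libraries lay on either side of the Itga6hi CD80pos pair. The log2 fold change of 0.82 ± 0.68 did not pass the test (SE, limma adjusted p = 0.318), and it was -0.47 without haemoglobin genes (limma adjusted p = 0.557). Leaving out Itga6low CD80neg replicate 2 brought it to 1.82 and past the test (limma adjusted p = 0.0128), and leaving out replicate 1 turned it to -0.18 (limma adjusted p = 0.451). Il36rn, the antagonist of the IL-36 receptor, stood at 2.88 and 5.25 TPM against 2.94 and 12.7 TPM. On the deposited TPM these groups overlapped too, and the log2 fold change was -0.58 ± 0.65 (SE, limma adjusted p = 0.455). Without haemoglobin genes the Itga6low CD80neg libraries stood at 10.1 and 25.7 TPM of Il36rn, above both of the others. The log2 fold change of -1.81 ± 0.57 then missed the threshold (SE, limma adjusted p = 0.0926).

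Both ligand-binding receptor chains were lower in Itga6hi CD80pos. Il1r1, the signalling chain, stood at 2.14 and 2.85 TPM against 29.5 and 13.1 TPM. The means were 2.49 ± 0.505 TPM and 21.3 ± 11.7 TPM (SD, n = 2), an 8.55-fold difference, with a log2 fold change of -2.58 ± 0.45 (SE, limma adjusted p = 0.00823). Il1r2, the decoy, stood at 4.56 and 3.37 TPM against 18.7 and 11.5 TPM. Its means differed 3.80-fold and its log2 fold change was -1.67 ± 0.36 (SE, limma adjusted p = 0.0129). For each of these receptors both Itga6low CD80neg libraries exceeded both Itga6hi CD80pos libraries, with replicate 1 the higher of the Itga6low CD80neg pair. Adjusted p stayed at or under 0.0275 for Il1r1 and 0.0306 for Il1r2 over the 5 scalings, and rose to 0.0976 and 0.113 without Itga6hi CD80pos replicate 1, and to 0.0753 and 0.132 without its replicate 2.

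Il1rap, the accessory chain shared by the interleukin-1 and IL-36 receptors, did not follow them. It stood at 6.65 and 10.3 TPM in Itga6hi CD80pos and at 5.78 and 5.53 TPM in Itga6low CD80neg. The groups did not overlap on the deposited TPM, but the log2 fold change of 0.49 ± 0.33 lay under the median of all genes and did not pass the test (SE, limma adjusted p = 0.228). It was -0.77 without haemoglobin genes (limma adjusted p = 0.274), where the Itga6low CD80neg libraries stood at 19.9 and 11.1 TPM.

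**Figure D2:**
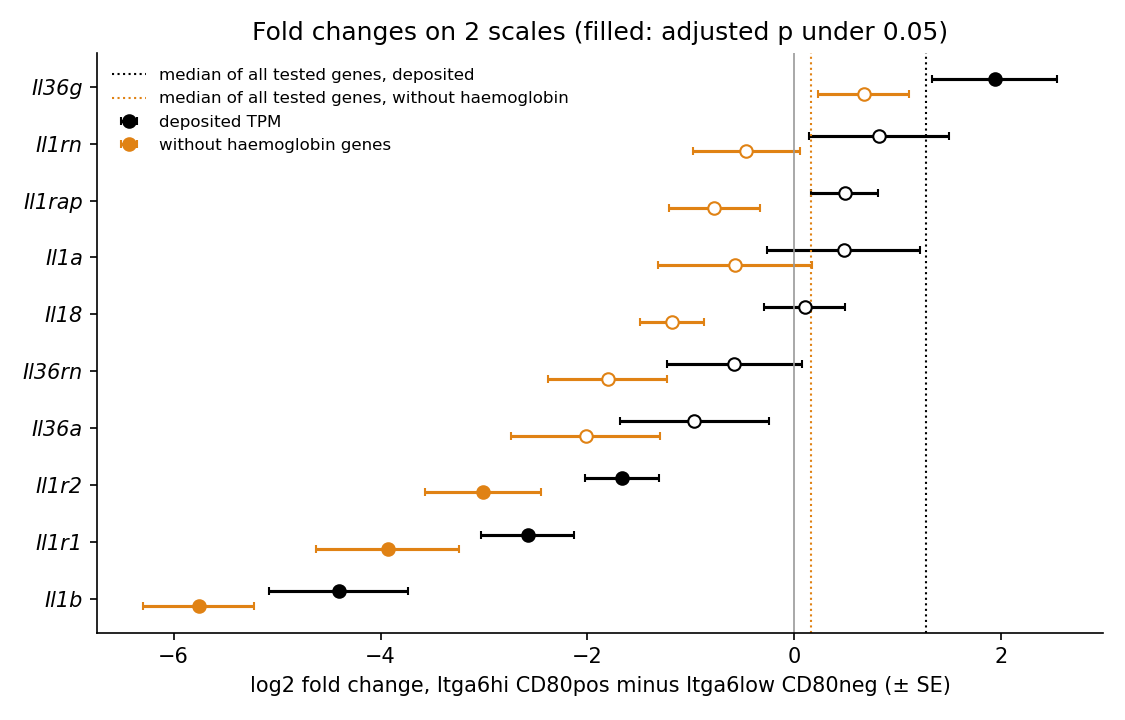
Log2 fold change (x axis, Itga6hi CD80pos minus Itga6low CD80neg, ± SE, n = 2 each) of each member on the deposited TPM and without haemoglobin genes, with dotted lines at the median of all tested genes and filled points for adjusted p under 0.05. Il1b, Il1r1 and Il1r2 are filled and under 0 on both scales, and Il36g is filled on the deposited TPM and open without haemoglobin genes.

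The order of the levels within each population can be read from TPM, since they are per length. In Itga6hi CD80pos, Il36g came first and Il1rn second, and the ranges of these neighbours did not overlap. Il18, with a mean of 8.53 TPM, lay under both values of Il1rn. From there Il1rap, Il1a, Il36rn and Il1r2 followed, down to a mean of 3.97 TPM, each overlapping the neighbour above it. Il1r1, Il36a and Il1b came last, and none of these overlapped the neighbour above it. In Itga6low CD80neg the order of means was Il1b, Il1r1, Il1r2, Il1rn, Il36g, Il18, Il36rn, Il1rap, Il36a and Il1a, and every neighbouring pair overlapped.

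A ratio of 2 genes within a library does not depend on how that library was scaled, apart from the pseudocount, so agonists were set against their antagonists in this way. The ratio of Il1b to Il1rn and that of Il36g to Il36rn moved in opposite directions between the populations. Il1b was at 0.0110 and 0.0256 of the Il1rn level in the Itga6hi CD80pos libraries, and at 2.79 and 2.54 times that level in the Itga6low CD80neg libraries. The antagonist exceeded the agonist in both of the former and in neither of the latter. On log2(TPM + 1) the ratio was -4.14 and -3.70 against 1.31 and 1.30, a difference of -5.23 with a pooled SD of 0.22. Although Il1b and Il1rn differed 4.20-fold and 4.62-fold between the Itga6low CD80neg libraries, their log2 ratio differed there by less than in any other pair.

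Il36g exceeded Il36rn in every library. It stood at 13.9 and 5.54 times the Il36rn level in Itga6hi CD80pos and at 1.41 and 1.20 times in Itga6low CD80neg. The log2 ratios were 3.40 and 2.27 against 0.39 and 0.25, a difference of 2.51 with a pooled SD of 0.57. The groups did not overlap, and this difference was larger than the spread within either group. Both genes of the pair enter it. Without haemoglobin genes the log2 fold change was 0.67 for Il36g and -1.81 for Il36rn. Neither passed the test (limma adjusted p = 0.337 and 0.0926).

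The remaining pairs shifted less. Il1a over Il1rn had log2 ratios of -2.52 and -1.16 against -1.45 and -1.54, which overlapped, with a difference of -0.34. Il36a over Il36rn, at -0.72 and -1.56 against -0.94 and -0.56, overlapped as well, with a difference of -0.39. The signalling chain Il1r1 over the decoy Il1r2 stood at -0.83 and -0.18 against 0.64 and 0.17. In this last pair the decoy was the higher transcript in both Itga6hi CD80pos libraries and the signalling chain in both Itga6low CD80neg libraries, with a difference of -0.91 and a pooled SD of 0.40. An exact two-sided permutation test of 2 libraries against 2 cannot go below p = 0.333; the 3 pairs without overlap gave this smallest value (exact permutation p adjusted over 5 pairs by Benjamini-Hochberg, 0.556), Il36a over Il36rn gave p = 0.667 and Il1a over Il1rn gave p = 1.

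**Figure D3:**
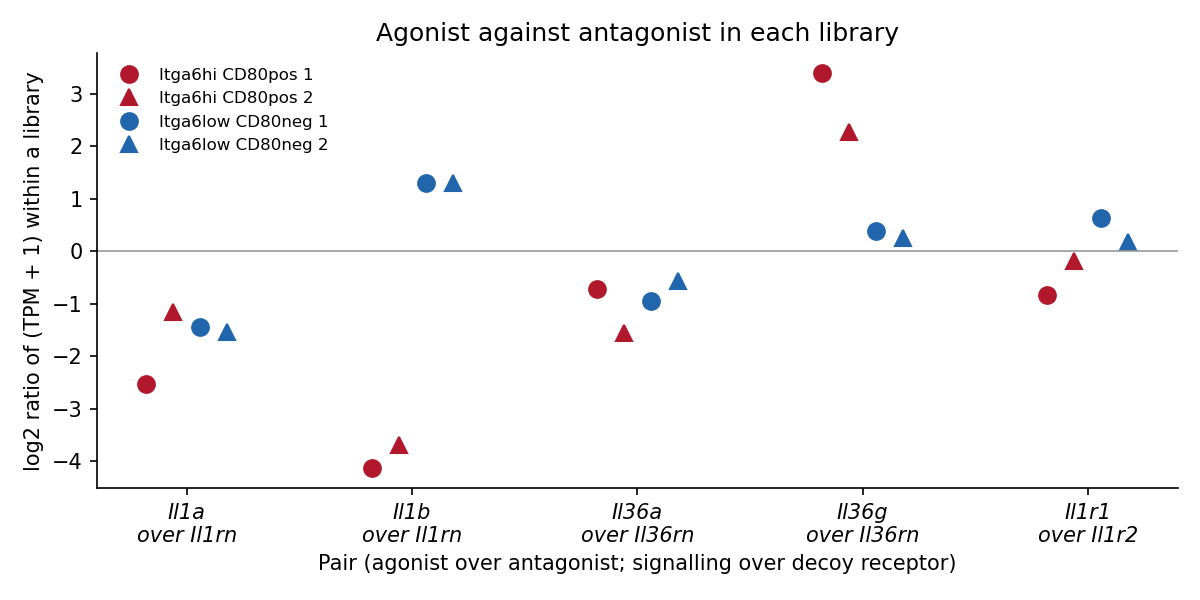
Log2 ratio of (TPM + 1) of agonist over antagonist, or of the signalling over the decoy receptor, in each library (circles replicate 1, triangles replicate 2). For Il1b over Il1rn the Itga6hi CD80pos points lie at -4.14 and -3.70 and the other 2 near 1.3, while for Il36g over Il36rn the Itga6hi CD80pos points are the higher ones.

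The make-up of the agonist transcripts puts the same TPM in another form and adds no separate evidence. Of the summed TPM of Il1a, Il1b, Il36a and Il36g, Il36g made up 90.2% and 76.2% in the Itga6hi CD80pos libraries and 21.3% and 17.8% in the Itga6low CD80neg libraries. Il1b made up 0.513% and 1.20% in the former and 67.7% and 64.6% in the latter. The shares of these 2 agonists did not overlap between the groups, while those of Il1a did: 6.24% and 19.6% against 5.62% and 7.99%. The sum itself was 44.4 and 38.1 TPM against 19.5 and 86.0 TPM on the deposited TPM, where the Itga6low CD80neg libraries lay on both sides of the others. This order did not hold without haemoglobin genes, where Il1b alone stood at 45.5 and 112 TPM in the Itga6low CD80neg libraries. Of the 2 antagonists, Il1rn was the more abundant in every library, with 87.8% and 77.3% of their summed TPM in Itga6hi CD80pos and 61.7% and 63.2% in Itga6low CD80neg.

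**Figure D4:**
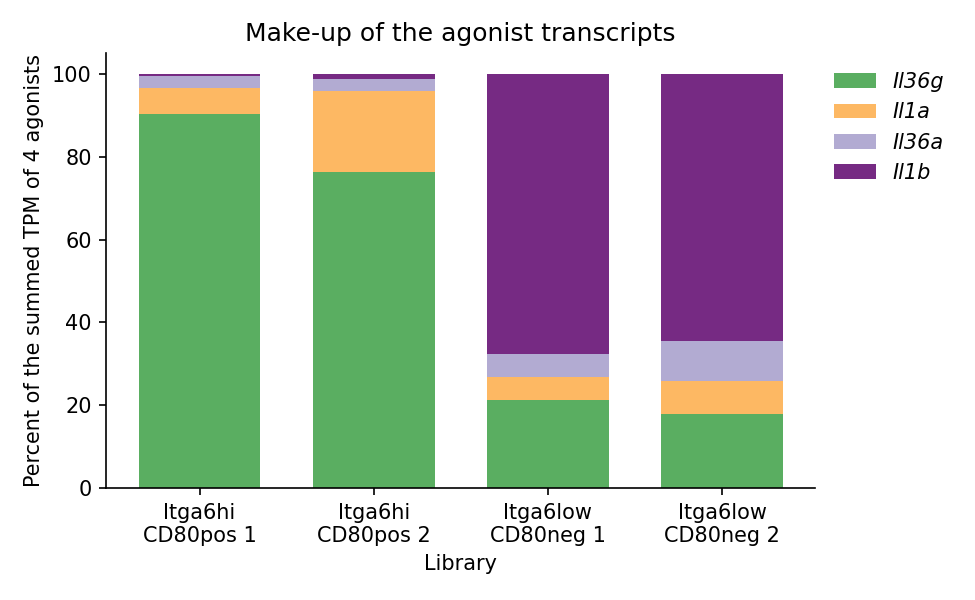
Percent of the summed TPM of 4 agonist genes held by each, in each library, as stacked bars from 0 to 100%. Il36g holds most of the bar in both Itga6hi CD80pos libraries and Il1b in both Itga6low CD80neg libraries.

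The sorted populations differed in markers of cell types, and in bulk RNA fewer cells of a type and less RNA per cell cannot be told apart. Keratinocyte markers (9 genes) summed to 52570.2 and 52952 TPM in Itga6hi CD80pos and to 2406 and 7359 TPM in Itga6low CD80neg, where the defining markers Krt5, Krt14 and Trp63 were all present. Fibroblast markers (8 genes, 7 of them lower) summed to 88.6 and 63.6 TPM against 8669 and 5312 TPM. Without haemoglobin genes the Itga6low CD80neg sums were 8275 and 14832 TPM for keratinocyte markers, and 29819 and 10706 TPM for fibroblast markers. Both lists differed between the groups alongside Il1b, Il1r1 and Il1r2, and their part in those differences was not tested.

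Defining markers of myeloid cells, the cells best known for Il1b, were low in both populations on the deposited TPM, and some were higher in Itga6low CD80neg. Among macrophage and monocyte markers, limma called Lyz2, a lysozyme of myeloid cells, lower. Lyz2 stood at 0.135 and 0 TPM against 4.78 and 2.33 TPM. The defining genes Adgre1, Csf1r and C1qa had their highest value at 1.78 on the deposited TPM. Csf1r, the receptor for a macrophage growth factor, stood at 0.0103 and 0.0301 TPM against 1.23 and 0.755 TPM. Without haemoglobin genes its Itga6low CD80neg values were 4.23 and 1.52 TPM. Of 15 neutrophil markers, 8 were under 1 TPM in every library. On the deposited TPM, limma called 0 of the 4 that could be tested, and 0 had an unadjusted p under 0.05. Without haemoglobin genes all 4 were lower at an unadjusted p under 0.05. These were Cxcr2, Mmp9, S100a8 and S100a9 (limma adjusted p = 0.115, 0.130, 0.0954 and 0.0648). Of all 13470 genes tested on that scale, 2392 were lower and 2527 higher at an unadjusted p under 0.05. The sum of the 15 neutrophil markers, 1087 and 774 TPM against 609 and 2617 TPM, was mostly S100a8 and S100a9, which stressed keratinocytes make too. Without haemoglobin genes the sum was 1087 and 774 TPM against 2095 and 5275 TPM. The defining marker Ly6g was listed at 0 in 3 libraries and at 0.35 TPM in Itga6low CD80neg replicate 2. Cxcr2, the receptor for neutrophil chemokines, stood at 1.27 and 1.90 TPM against 1.15 and 5.58 TPM. Both of these overlapped between the groups on the deposited TPM. Without haemoglobin genes Cxcr2 stood at 1.27 and 1.90 TPM against 3.96 and 11.2 TPM. Csf3r, the receptor for a neutrophil growth factor and also a defining marker, stood at 0.0129 and 0.0201 TPM against 1.66 and 0.924 TPM. Without haemoglobin genes its Itga6low CD80neg values were 5.72 and 1.86 TPM. Retnlg was listed at 0 in both Itga6hi CD80pos libraries and at 0.340 and 9.75 TPM in the others. Neither overlapped, both had the direction of Il1b, and both were under the filter and so not tested. Summed T cell markers were at 0.416 and 0.371 TPM against 2.60 and 6.52 TPM. Mast cell markers were at 0.117 and 0.403 TPM against 1.12 and 7.01 TPM. Without haemoglobin genes the Itga6low CD80neg sums were 8.94 and 13.1 TPM for T cell markers, and 3.84 and 14.1 TPM for mast cell markers. Langerhans and dendritic markers were at 21.2 and 56.4 TPM against 10.4 and 45.5 TPM, mostly Cd74 and H2-Ab1. The defining genes Cd207, Flt3 and Zbtb46 had their highest value at 0.328 TPM. Flt3 and Zbtb46 were higher in both Itga6low CD80neg libraries, and Cd207 was at 0 there. Endothelial markers were at 5.27 and 10.9 TPM against 6.66 and 3.55 TPM. Without haemoglobin genes the Itga6low CD80neg sums were 35.7 and 91.7 TPM for Langerhans and dendritic markers, and 22.9 and 7.15 TPM for endothelial markers. The part of these cells in the Il1b level was not tested.

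The Itga6low CD80neg libraries differed between themselves in the members. Of the 10 members, 7 were higher in replicate 2 and 3, the receptor chains Il1r1, Il1r2 and Il1rap, were higher in replicate 1, and the same counts held without haemoglobin genes. On that scale the ratio of replicate 2 to replicate 1 was 2.46 for Il1b, 2.71 for Il1rn, 2.16 for Il36g, 2.54 for Il36rn, 3.67 for Il1a and 4.61 for Il36a. It was 0.259 for Il1r1 and 0.361 for Il1r2. Beside these, summed keratinocyte markers had a ratio of 1.79, T cell markers of 1.47, Langerhans and dendritic markers of 2.57 and mast cell markers of 3.68. Fibroblast markers had a ratio of 0.359, endothelial markers of 0.312 and red blood cell markers other than haemoglobin of 0.348. Neutrophil markers had 2.52, from a sum that was mostly S100a8 and S100a9. Among the other neutrophil markers the ratio was 2.84 for Cxcr2 and 16.8 for Retnlg, but 0.520 for Mmp9 and 0.326 for Csf3r. Within the Itga6hi CD80pos pair, Il1a and Il1b differed at least 2-fold and the other 8 members by less.

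Genes whose values over the 4 libraries were most like a member's were found by the distance between centred log2(TPM + 1) values, a description over 4 points. Nearest to Il1b were Dct, an enzyme of melanin synthesis, at a distance of 0.17, then Fcgr2b, an inhibitory antibody receptor, and Hsd11b1, an enzyme of glucocorticoid activation. Il1r1 lay nearest to Loxl4, a collagen cross-linking oxidase, Shc2 and Layn, and Il1r2 to Gfra2, Runx1t1 and Pde4d. For Il36g they were Ndufs6 and Atp5k, components of mitochondrial respiration, and Rnf43. Il36a lay nearest to Cxcl2 and S100a9, both inflammatory products, and Sdcbp2, and Il36rn to Pglyrp4, Cxcr2 and H2ac19. Il1a lay nearest to the tight junction gene Cldn1, Degs2 and Pglyrp3, and Il1rn to Fzd10os, Syt12 and Sdr16c6. Il1rap had Vmac, Ppfibp1 and Elk1, and Il18 had Rnf13, Selenos and Tmem120b.

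Around the members, 65 genes of the pathway were followed in 4 lists, of which 51 could be tested. On the deposited TPM, limma called 22 of these higher, of a background of 57.0%, and 8 lower, of 9.48%. None of the 22 and all of the 8 were kept under the 5 scalings.

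Of 11 other ligands, receptors and binding proteins, 6 could be tested, with 1 higher, 2 lower and a median log2 fold change of -0.26. Il1rl1, the receptor for interleukin-33, stood at 0.0153 and 0.00606 TPM against 2.59 and 8.26 TPM (limma adjusted p = 0.0104). Il33 itself, an alarmin of epithelial and stromal nuclei, stood at 23.6 and 29.7 TPM against 49.5 and 72.4 TPM (limma adjusted p = 0.0392). Both were lower and kept, so this ligand and its receptor were lower together. Sigirr, which restrains receptors of the family, stood at 4.29 and 3.39 TPM against 0.227 and 0.587 TPM. It was called higher (limma adjusted p = 0.00739) but not kept, with adjusted p up to 0.0732 over the scalings. Il1rl2, the receptor of the IL-36 ligands, was chosen after its values were seen and stood at 21.8 and 25.3 TPM against 15.3 and 11.4 TPM. It did not pass (limma adjusted p = 0.0759), and its log2 fold change went from 0.78 to -0.55 without haemoglobin genes.

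Signal transducers from the receptor to NF-kB were higher in 12 of 17 members and lower in 0, with 5 not called. Their median log2 fold change of 1.46 lay close to the 1.27 of all tested genes. Without haemoglobin genes it was 0.14, with 0 of 17 called by limma in either direction. There, 1 was higher and 2 were lower at an unadjusted p under 0.05, beside 2527 higher and 2392 lower of all 13470 genes. The largest changes were in Ube2v1 and Ube2n, which together build the ubiquitin chains used by Traf6, and in the kinase Irak4. Irak4 stood at 12.5 and 12.1 TPM against 2.52 and 3.20 TPM (limma adjusted p = 0.00705). Ube2v1 had 137 and 128 TPM against 27.8 and 36.5 TPM (limma adjusted p = 0.00845). Ube2n had 149 and 166 TPM against 23.4 and 63.7 TPM (limma adjusted p = 0.0261). In these 3 genes both Itga6hi CD80pos libraries were above both others. Myd88, the adaptor that joins the receptor to Irak4, was chosen after its values were seen; at 49.7 and 50.9 TPM against 30.5 and 38.8 TPM it did not pass (limma adjusted p = 0.200).

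Inflammasome and processing genes went both ways: of 18, 10 could be tested, with 6 higher and 3 lower. The higher calls were led by the calpain protease Capn1, at 139 and 133 TPM against 23.5 and 26.1 TPM (limma adjusted p = 0.00586). The DNA sensor Aim2 had 9.87 and 18.5 TPM against 0.639 and 3.71 TPM (limma adjusted p = 0.0193). The adaptor Pycard had 183 and 141 TPM against 16.8 and 62.3 TPM (limma adjusted p = 0.0304). None of these was kept. Casp1 and the 3 lower genes are given although the naming rule left them out, a choice made with their values known. Casp1, the protease that matures Il1b and Il18, stood at 80.7 and 55.7 TPM against 11.0 and 17.2 TPM (limma adjusted p = 0.00852, and adjusted p = 0.0924 without haemoglobin genes). The 3 lower genes were all kept. Gsdmd, which forms the pore through which mature interleukin-1 beta leaves a cell, stood at 2.06 and 7.25 TPM against 18.4 and 21.7 TPM (limma adjusted p = 0.0200). Casp4, the caspase that cleaves it in response to bacterial lipid, stood at 3.28 and 6.05 TPM against 10.7 and 22.3 TPM (limma adjusted p = 0.0307). Prtn3, a granule protease, stood at 0.0640 and 0.229 TPM against 1.88 and 2.20 TPM (limma adjusted p = 0.00943). The Itga6hi CD80pos libraries had the higher level of Casp1 and the lower level of Gsdmd and Il1b on the deposited TPM.

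Of 19 genes that interleukin-1 is known to induce in epithelium and stroma, 18 could be tested, with 3 higher and 3 lower on the deposited TPM and a median log2 fold change of -0.43. Without haemoglobin genes limma called 0 higher and 6 lower (0 and 10 at an unadjusted p under 0.05). Of all 13470 genes on that scale it called 7.72% higher and 10.8% lower (2527 and 2392 at an unadjusted p under 0.05). Saa3, an acute-phase protein, stood at 0.471 and 0.460 TPM against 162 and 151 TPM, with a log2 fold change of -6.75 ± 0.29 (SE, limma adjusted p = 0.00162). Il6, an inflammatory cytokine, stood at 0.913 and 2.72 TPM against 99.9 and 115 TPM (limma adjusted p = 0.0028). Mmp3, a stromal metalloproteinase, had 8.69 and 40.3 TPM against 124 and 92.6 TPM (limma adjusted p = 0.0318). All 3 were kept. Fibroblasts also make these 3 products, and the fibroblast markers given above differed in the same direction. The part of fibroblasts in these values was not tested. The 3 higher genes are given with their values known. Csf3 stood at 3.29 and 6.43 TPM against 1.15 and 0.129 TPM (limma adjusted p = 0.0183). Ptgs2 had 47.6 and 44.7 TPM against 15.7 and 17.1 TPM (limma adjusted p = 0.0126). Zc3h12a had 51.1 and 54.0 TPM against 14.8 and 27.0 TPM (limma adjusted p = 0.0310). None of these higher calls was kept.

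**Figure D5:**
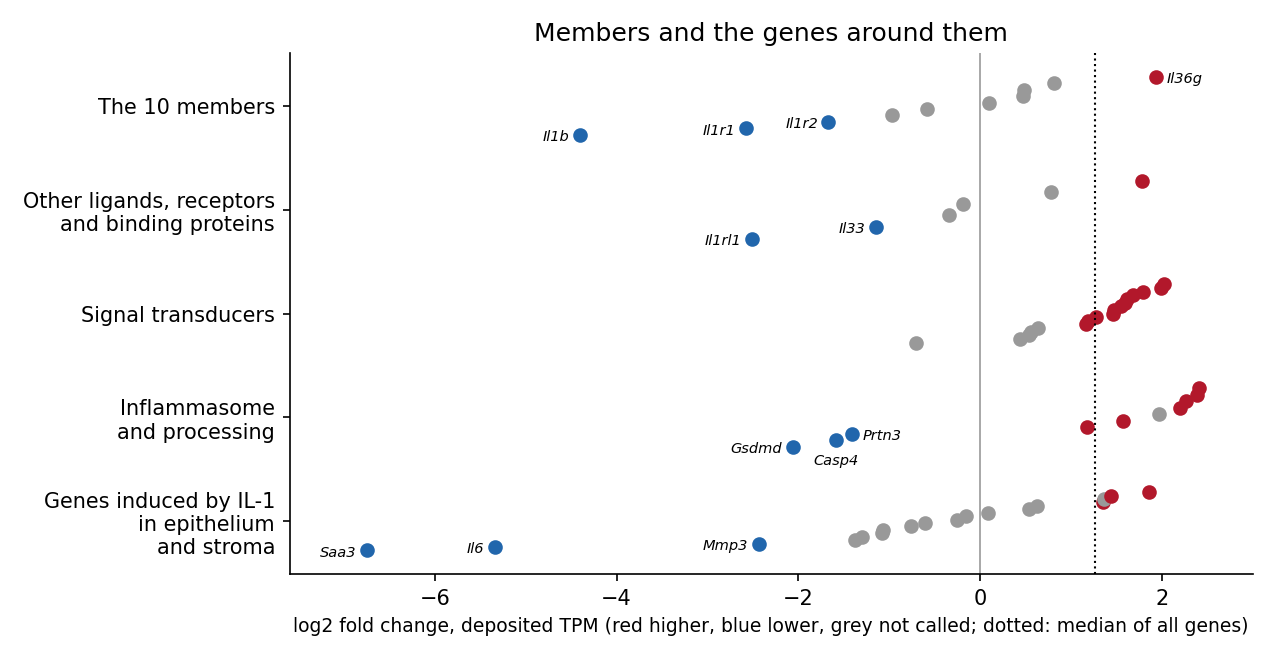
Log2 fold change on the deposited TPM (x axis) of the 10 members and of each tested gene in 4 pathway lists, with red for higher, blue for lower and grey for not called, and a dotted line at the median of all tested genes (1.27). Lower genes are named, among them Saa3, Il6, Il1b, Il1r1 and Il1rl1, and the signal transducers gather around the dotted line.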

How the data were processed

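The values the authors deposited are TPM per gene, with 2 columns for each of 2 sorted populations; the labels list 6 libraries in 3 groups. Per the submitters' processing notes, kallisto 0.44.0 and the build mm10 were used. Which annotation was used and how transcripts were combined into genes is not given in the sources used here. On log2(TPM + 1), limma 3.58.1 (R 4.3.3, eBayes with a trend, 2 residual and 3.33 prior degrees of freedom) compared the populations, two-sided, over the 13474 genes reaching 1 TPM in 2 or more libraries, with Benjamini-Hochberg adjustment over all of them. Fold changes on that scale understate changes of low genes. Ratios of genes within a library were compared with exact permutation tests.

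The members, the gene lists and the tests were chosen with earlier results of these data known. All 10 members were named, and in each pathway list up to 3 called genes with the largest fold change and no overlap between groups; other genes are said to have been chosen after their values were seen, apart from cell type markers. Current symbols absent from the table were matched through RefSeq synonyms, and promoter windows are from RefSeq (GRCm38.p6). Alternatives were other pseudocounts, filters and scalings, a replicate block, and leaving out each library. Part of the macrophage and monocyte marker result is not reported here.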

Additional observations from a re-analysis of the deposited data

How the results depend on the processing

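With 2 libraries a group, the member calls did not outlast the loss of either Itga6hi CD80pos library. The log2 fold change of Il1b hardly moved, from -4.41 to -4.28 without replicate 1 and -4.53 without replicate 2. The depth of each library is unknown, so low levels such as Il1b in Itga6hi CD80pos carry an error that cannot be given. The members called higher (1) became 0 with no filter, under median-of-ratios scaling, under quantile normalization and in both totals with genes left out, and ranged from 0 to 2 when each library was left out. The members called lower (3) were 3 under every other pseudocount, filter and scaling, 4 with the replicate block and from 0 to 4 without each library. Pathway genes called higher (22) became 1 under median-of-ratios scaling, 2 under quantile normalization, 0 without haemoglobin genes and 4 without haemoglobin, mitochondrial, ribosomal protein and keratin genes, and ranged from 0 to 23 without each library. Over all tested genes the share called higher fell alongside, from 57.0% to 10.2%, 12.0%, 7.72% and 13.9% under these 4 scalings, and to 0% and 2.62% without Itga6hi CD80pos replicate 1 and 2. Those called lower (8) became 2 with no filter, where the share of all genes called lower went from 9.48% to 2.78%, and ranged from 0 to 11 without each library.

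Under median-of-ratios scaling, quantile normalization, without haemoglobin genes and in the last total, in that order, the log2 fold changes that turned were -0.46, -0.21, -0.58 and -0.38 for Il1a, -0.35, -0.37, -0.47 and -0.23 for Il1rn, -0.62, -0.62, -0.77 and -0.56 for Il1rap, and -1.02, -1.02, -1.18 and -0.97 for Il18; none of these 16 values passed the test. Without each library, the log2 fold change ranged from -0.48 to 1.43 for Il1a (-0.11 without Itga6hi CD80pos replicate 2), from -0.18 to 1.82 for Il1rn, from -0.33 to 0.53 for Il18 (-0.01 without Itga6hi CD80pos replicate 2), from -2.06 to 0.12 for Il36a and from -1.48 to 0.32 for Il36rn. The shift of the log2 ratio of Il1b over Il1rn was -6.90 at a pseudocount of 0.1, -3.22 at a pseudocount of 5 and -4.77 under median-of-ratios scaling. That of Il36g over Il36rn was 1.92 at a pseudocount of 5. Those of Il1a over Il1rn and Il36a over Il36rn ranged from -1.03 to 0.34 and from -0.81 to 0.029 without each library.

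Same-numbered libraries deviated from their group means with a correlation of 0.11 over genes, and with 2 numbers this does not pair them. The replicate block, with 1 residual degree of freedom, called Il36a lower too (limma adjusted p = 0.0251), and changed no other member's call. It gave 24 pathway genes higher and 10 lower, and left each ratio's mean difference as it was.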
